A study of Mus musculus with 6 samples.

Results

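Levels are described for 8 genes through which mouse cells receive interleukin 4 (IL-4) and interleukin 13 (IL-13): the receptor chains Il4ra, Il13ra1, Il13ra2 and Il2rg, the Janus kinases Jak1, Jak2 and Tyk2, and the transcription factor Stat6. The genes were chosen by their known role and matched by symbol in the GENCODE annotation of the mouse genome build GRCm38. They are 8 of the 52636 gene IDs of the deposited matrix, and 7 of them had at least 1 unique molecular identifier (UMI, a tag that marks 1 captured transcript).

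In the type I receptor IL-4 is bound by Il4ra together with Il2rg, the common gamma chain, and in the type II receptor IL-4 or IL-13 is bound by Il4ra together with Il13ra1. Jak1 is attached to Il4ra, Jak3 to Il2rg, and Tyk2 or Jak2 to Il13ra1, and these kinases phosphorylate Stat6, which enters the nucleus and binds DNA. Il13ra2 binds IL-13 tightly, has a short cytoplasmic tail and is known as a decoy receptor. Type I receptors are typical of blood cells and type II receptors of epithelial cells such as those of the lung.

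The cells are alveolar type II (ATII) cells, which make surfactant and renew the lung alveolus, and the study concerns their response to IL-4 in ageing. Cells labelled IL4Ra WT were taken from lungs of mice, and 3 expression libraries were labelled: ATII cells of young and old mice from day 13 of culture, ATII cells of young mice from day 13, and freshly sorted ATII cells of young and old mice from day 0. In culture the cytokine at 10 ng/ml, or PBS as control, was added on day 3, each library pools cells of several treatments or mice under the label mixed sample, and the cytokine is IL-4 in the title but carries a different interleukin number in the design text. Strain and exact ages are not given in the sources used here. Barcodes of the matrix carry 3 library tokens, of which 0 matched a label, so each library is known here only by a letter, A, B or C, with its day, age and treatment not assigned. Levels in different libraries were therefore not set against each other as a fold or test, and IL-4 was not compared with PBS, old mice with young mice, or day 13 with day 0.

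After filtering, library A held 16367 cells with a median of 3749 UMIs, library B 5593 cells with a median of 8349, and library C 14580 cells with a median of 3341. Total counts were 63658436, 48676834 and 53329664 UMIs. All 12 of 12 ATII markers reached 20 counts per 1000000 UMIs (CPM) in each library, and the 10 markers of T or NK cells summed to 1.48, 0.863 and 0.938 CPM with 8, 7 and 9 of them at 0. Between libraries, 20 (A and B), 67 (A and C) and 22 (B and C) barcode sequences were shared. Every library is the only one of its group and cells are not replicates, so no p-value is given. Ranges in parentheses are 95% exact intervals (Poisson for CPM, conditional for ratios of counts, Clopper-Pearson for shares of cells), and they cover counting error only.

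Cells were also ordered by Retnla, which encodes the secreted protein RELM-alpha (Fizz1) and is a classical target of IL-4 and Stat6 in mouse. Promoter sequences of Retnla and Il13ra2 are shown because the level of Il13ra2 moved with that of Retnla in the data below. Both come from RefSeq, build GRCm38.p6, and read 5′ to 3′. The Retnla window is chr16:48842359-48842550 on the plus strand (192 bases) and the Il13ra2 window is chrX:147429193-147429442 on the minus strand (250 bases). Both windows were cut before the first annotated start of the gene. Capitals mark TTCNNNNGAA, the spacing that STAT6 is known to prefer.
Retnla: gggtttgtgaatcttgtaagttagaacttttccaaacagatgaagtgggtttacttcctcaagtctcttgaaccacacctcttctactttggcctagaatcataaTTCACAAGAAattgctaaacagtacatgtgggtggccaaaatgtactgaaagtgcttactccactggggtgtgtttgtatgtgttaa
Il13ra2: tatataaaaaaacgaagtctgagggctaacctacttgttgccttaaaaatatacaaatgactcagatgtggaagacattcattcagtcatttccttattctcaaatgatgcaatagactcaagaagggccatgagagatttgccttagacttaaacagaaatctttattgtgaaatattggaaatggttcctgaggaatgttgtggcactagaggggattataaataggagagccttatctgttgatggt
The Retnla window held 1 match, TTCACAAGAA, and the Il13ra2 window held 0. TTCNNNNGAA, which is its own reverse complement, so that 1 search covers both strands, was present in 2284 of 32851 RefSeq promoter windows (6.95%), and the shorter TTCNNNGAA in 2726 (8.30%). Windows were found for all 8 receptor and signalling genes, and 0 of the 8 held either pattern. A match is a run of letters and not a measured site of binding, and its absence covers this window alone.

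Il4ra (ENSMUSG00000030748, GRCm38 chromosome 7, 125552120 to 125579474, plus strand) encodes the chain shared by both receptor types. It had 9.02 CPM in library A (8.29 to 9.79), 12.7 in B (11.7 to 13.7) and 16.3 in C (15.2 to 17.4), and these intervals do not overlap. A UMI of Il4ra was present in 3.37% of cells of library A, 9.94% of library B and 5.49% of library C. Once every cell was thinned to 2000 UMIs the shares were 1.59% (1.40 to 1.79), 2.5% and 3.08%, in the same order as the CPM.

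Il13ra1 (ENSMUSG00000017057, chromosome X, 36112110 to 36171259, plus strand), the partner of Il4ra in the type II receptor, had 14.2 CPM in library A (13.3 to 15.1), 14.6 in B (13.55 to 15.7) and 12.2 in C (11.25 to 13.1). The interval of library C lay below that of library B, and those of A and B overlap. Thinned shares of cells were 2.71%, 2.91% and 2.31%.

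Il13ra2 (ENSMUSG00000031289, chromosome X, 147383476 to 147429192, minus strand), the decoy chain, had 11.6 CPM in library A (10.8 to 12.5), 8.88 in B (8.06 to 9.75) and 4.33 in C (3.79 to 4.93), an order opposite to that of Il4ra. In library A its 741 UMIs were held by 508 cells, 1.46 per cell with any, and 26.4% of those cells held 2 or more, up to 15 in 1 cell. Il4ra in the same library had 1.04 UMIs per cell with any and 3.81% of such cells with 2 or more, and Il13ra1 1.07 and 5.93%. In library B 16.7% of cells with an Il13ra2 UMI held 2 or more, against 10.3% for Il4ra and 7.63% for Il13ra1. In library C the share was 9.09%, against 7.5% for Il4ra and 2.86% for Il13ra1. Il13ra2 UMIs were thus concentrated in fewer cells than those of Il4ra or Il13ra1 most clearly in library A. In library C the share for Il13ra2 was close to that for Il4ra, and the difference was not tested. Whether the cells with Il13ra2 UMIs carry airway markers was not tested.

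Il2rg (ENSMUSG00000031304, chromosome X, 101264378 to 101268255, minus strand), the common gamma chain, had 0 UMIs in all 36540 cells, which allows a share of cells with a UMI of up to 0.00821% and a level of up to 0.0471 CPM for library A, 0.0616 for B and 0.0563 for C. The annotated gene Gm20489 lies over Il2rg on the same strand and shares 728 of its 2387 exon bases (30.5%), 73 of them in the 660 bases of the last exon. Gm20489 also had 0 UMIs. Cell Ranger does not count a read that matches the exons of more than 1 gene, and the share of Il2rg reads lost in this way was not tested. Other markers of blood cells were near 0 as well: Ptprc (CD45) had 2, 1 and 1 UMIs in libraries A, B and C, Il7r 4, 0 and 0, and Cd3e 0, 1 and 0. Jak3, the kinase that binds Il2rg, was measured at 3.71, 3.64 and 5.68 CPM, and Crlf2, the common-gamma-like chain of the TSLP receptor, at 3.14, 11.9 and 15.6 CPM.

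With 2000 UMIs per cell, Il4ra and Il13ra1 were detected together in 6 of 16079 cells of library A (0.0373%, 0.0137 to 0.0812), 5 of 5564 of library B (0.0899%, 0.0292 to 0.210) and 7 of 13291 of library C (0.0527%, 0.0212 to 0.1085). Multiplying the single shares gives 6.9 cells in A, 4.05 in B and 9.45 in C. The intervals of the observed shares hold these values, so no excess or lack of cells with both chains was detectable at that depth. Without thinning, the pair was seen in 23, 83 and 34 cells, where the products give 28.4, 65.1 and 34.5, and in library B the 83 cells (1.48%, 1.18 to 1.84) exceeded the product. Unthinned cells differ in depth, and its part in that excess was not tested. The pair of Il4ra and Il2rg was seen in 0 cells of each library.

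Jak1 (ENSMUSG00000028530, chromosome 4, 101152367 to 101265282, minus strand), the kinase bound to Il4ra, had 113.8 CPM in library A (111 to 116.5), 50.15 in B (48.2 to 52.2) and 35.2 in C (33.7 to 36.9). Jak2 (ENSMUSG00000024789, chromosome 19, 29251828 to 29313080, plus strand) had 30.1 CPM in library A (28.7 to 31.4), 8.53 in B (7.73 to 9.39) and 7.82 in C (7.09 to 8.61). Tyk2 (ENSMUSG00000032175, chromosome 9, 21104068 to 21131243, minus strand) had 4.98 CPM in library A (4.45 to 5.56), 2.51 in B (2.08 to 2.99) and 2.61 in C (2.19 to 3.08). All 3 kinases had their highest level in library A, and for Jak2 and Tyk2 the intervals of libraries B and C overlap. On the opposite strand Il4ra overlaps Gm44876, Jak1 overlaps Raver2 and Gm24468, Tyk2 overlaps 1700084C06Rik and Stat6 overlaps Nab2, and since the strand setting of the counting is not given in the sources used here, their reads may not be fully apart.

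Stat6 (ENSMUSG00000002147, chromosome 10, 127642986 to 127660957, plus strand), the transcription factor of the pathway, had 25.5 CPM in library A (24.3 to 26.8), 8.57 in B (7.76 to 9.43) and 8.44 in C (7.68 to 9.26). Its intervals in libraries B and C overlap, and that of library A lies above both. Thinned shares of cells with a Stat6 UMI were 4.90%, 1.87% and 1.78%, against 19.3%, 8.95% and 6.31% for Jak1.

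**Figure D1:**
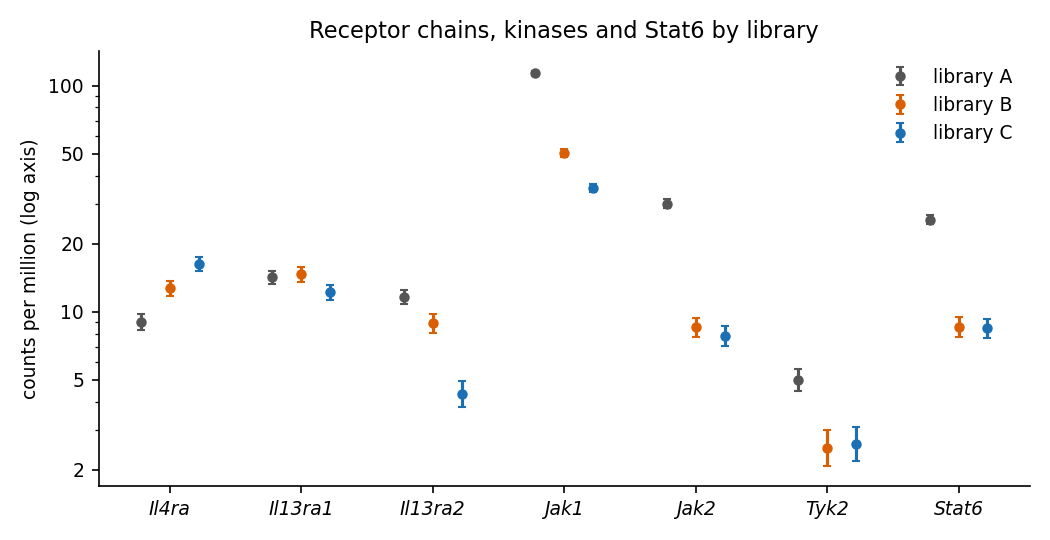
Summed level in CPM (log axis) of the 7 detected genes in libraries A, B and C, with bars for exact 95% Poisson intervals. Jak1, Jak2, Tyk2 and Stat6 sit highest in library A (Jak1 at 113.8 CPM), whereas Il4ra is lowest there (9.02 CPM); Il2rg had 0 UMIs and is not drawn.

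The next comparison sets cells with at least 0.005 of their UMIs from Retnla (Retnla-high) against cells with under 0.001 (Retnla-low) of the same library. Library B had 3238 high and 1567 low cells with 788 between, and library C 8038 high and 6018 low cells with 524 between, while library A had 7 high cells and was left out. The ranges are levels of 1 gene and not treatment groups. Il13ra2 had 11.1 CPM in Retnla-high cells (345 UMIs), against 1.64 CPM in Retnla-low cells (18 UMIs) in library B, a ratio of 6.78 (4.22 to 11.6). In library C it had 6.99 CPM in Retnla-high cells (217 UMIs), against 0.580 CPM in Retnla-low cells (12 UMIs), a ratio of 12.05 (6.76 to 23.7).

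Cells between the cuts had 10.5 CPM of Il13ra2 in library B, close to the Retnla-high cells, and 1.26 CPM in library C (2 UMIs), an interval (0.153 to 4.55) that lies below that of the Retnla-high cells. In cells thinned to 2000 UMIs, an Il13ra2 UMI was present in 2.10% of Retnla-high cells (1.64 to 2.66), against 0.453% of Retnla-low cells (0.182 to 0.931) in library B. In library C the shares were 1.45% of Retnla-high cells (1.19 to 1.75), against 0.0559% of Retnla-low cells (0.0115 to 0.163). No cell type known to lack Il13ra2 is among these cells and the share that free RNA gives was not measured. Counted from the other side, 68 of 92 thinned cells with an Il13ra2 UMI were Retnla-high in library B (73.9%, 63.7 to 82.5), against 57.9% of the cells without one. In library C 109 of 113 were Retnla-high (96.5%, 91.2 to 99.0), against 56.25% of the cells without one.

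The size rule of this comparison asks for a log2 fold, with 1 CPM added to both levels, of at least 1 in either direction and at least 20 CPM in either group. It called 5.61% of 4880 genes in library B and 4.58% of 4739 genes in library C. Of the 8 genes described here only Jak1 reached 20 CPM, and it was not called, so this rule says little of the others. Under a rule added after its level was seen, that the whole interval of the ratio lies past 2-fold with at least 3 counts in a group, Il13ra2 alone of the 7 detected genes was called higher in both libraries, where 1.07% of 18006 genes in library B and 1.35% of 18650 in library C were.

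Il4ra was moderately higher in Retnla-high cells. It had 14.6 CPM in Retnla-high cells, against 9.91 CPM in Retnla-low cells in library B, a ratio of 1.48 (1.195 to 1.84), and 19.2 against 12.1 CPM in library C, a ratio of 1.59 (1.37 to 1.85). Jak1 had 55.3 CPM in Retnla-high cells, against 36.6 CPM in Retnla-low cells in library B, a ratio of 1.51 (1.35 to 1.69), and 37.85 against 31.7 CPM in library C, a ratio of 1.19 (1.08 to 1.32). Both genes therefore lay above equal levels in both libraries, by less than 2-fold.

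Jak2 lay below equal levels in both, though in library B not after TMM scaling (0.695 to 1.098). It had 8.03 CPM in Retnla-high cells, against 10.3 CPM in Retnla-low cells in library B, a ratio of 0.782 (0.624 to 0.986), and 6.54 against 9.81 CPM in library C, a ratio of 0.667 (0.546 to 0.814). Il13ra1 did not differ beyond counting error in library B (13.9 against 14.0 CPM, ratio 0.994, 0.825 to 1.20) and was lower in Retnla-high cells of library C (10.8 against 14.1 CPM, ratio 0.767, 0.654 to 0.901). Stat6 had 9.32 CPM in Retnla-high cells, against 6.73 CPM in Retnla-low cells in library B (ratio 1.39, 1.07 to 1.81), and 7.92 against 9.28 CPM in library C (ratio 0.854, 0.704 to 1.04). Tyk2 had intervals that span equal levels in both libraries, at 2.35 against 2.82 CPM in library B and 2.55 against 2.80 CPM in library C.

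An interval wholly above equal levels was found for 4 of the 7 detected genes in library B, where 11.7% of 18006 genes had one, and for 3 of 7 in library C, where 12.1% of 18650 had one. An interval wholly below was found for 1 of 7 in library B (23.1% of all genes) and 2 of 7 in library C (20.7%). These shares, like all others given here for whole intervals, are over genes with at least 3 counts in a group and are not matched for level. A gene with few counts has a wide interval, so the shares do not show whether the 7 genes stand out, which was not tested. The median log2 fold over all genes under the size rule was -0.11 in library B and -0.07 in library C. TMM scaling added 0.16 and 0.08 to the log2 folds, and under it Il13ra1 of library B had a log2 fold of 0.14 in place of -0.01, while no gene named above as higher or lower changed sign and Jak2 of library B alone lost its side of equal levels.

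Other measures moved with the Retnla ranges. The median UMIs per cell were 9280.5 in Retnla-high and 6468 in Retnla-low cells of library B, and 3607 and 3122.5 in library C. Summed ATII markers had 175900 CPM in Retnla-high and 132800 CPM in Retnla-low cells of library B (150200 and 130600 in library C), transitional markers 1863 and 4230 CPM (1955 and 3273), and ATI markers, of the flat gas-exchange cells, 1079 and 2547 CPM (1718 and 3529). The 8 B cell markers, nearly all of it Cd79b, had 165.1 and 58.35 CPM in library B (201.8 and 62.0 in library C), with 4 of 8 at 0 in each library, and the 6 airway secretory markers 188.1 and 46.35 CPM (118.3 and 18.3). T or NK cell markers were under 1 CPM in all 4 groups. For Il13ra2 the difference was as large outside the 10% of cells with the highest transitional marker share, at 11.1 CPM in Retnla-high and 1.41 CPM in Retnla-low cells of library B and 7.01 and 0.347 CPM in library C. Inside that 10% it rested on 3 and 6 UMIs in each library. Outside the 10% with the highest ATI marker share it was as large too, at 11.2 CPM in Retnla-high and 1.80 CPM in Retnla-low cells of library B and 7.13 and 0.668 CPM in library C. The part of the B cell and airway markers and of depth was not tested. Il4ra had an interval above equal levels outside each of these top groups in both libraries, and so did Jak1. Inside the transitional 10% Jak1 of library C had 17.3 CPM in Retnla-high cells (9 UMIs), against 35.05 CPM in Retnla-low cells, an interval wholly below equal levels. Jak1 of library B had 64.0 CPM (19 UMIs) against 30.35 CPM there, an interval wholly above. The interval of Stat6 in library B spanned equal levels outside either top group. In library C that of Stat6 lay wholly below outside the ATI 10% and spanned equal levels outside the transitional 10%.

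**Figure D2:**
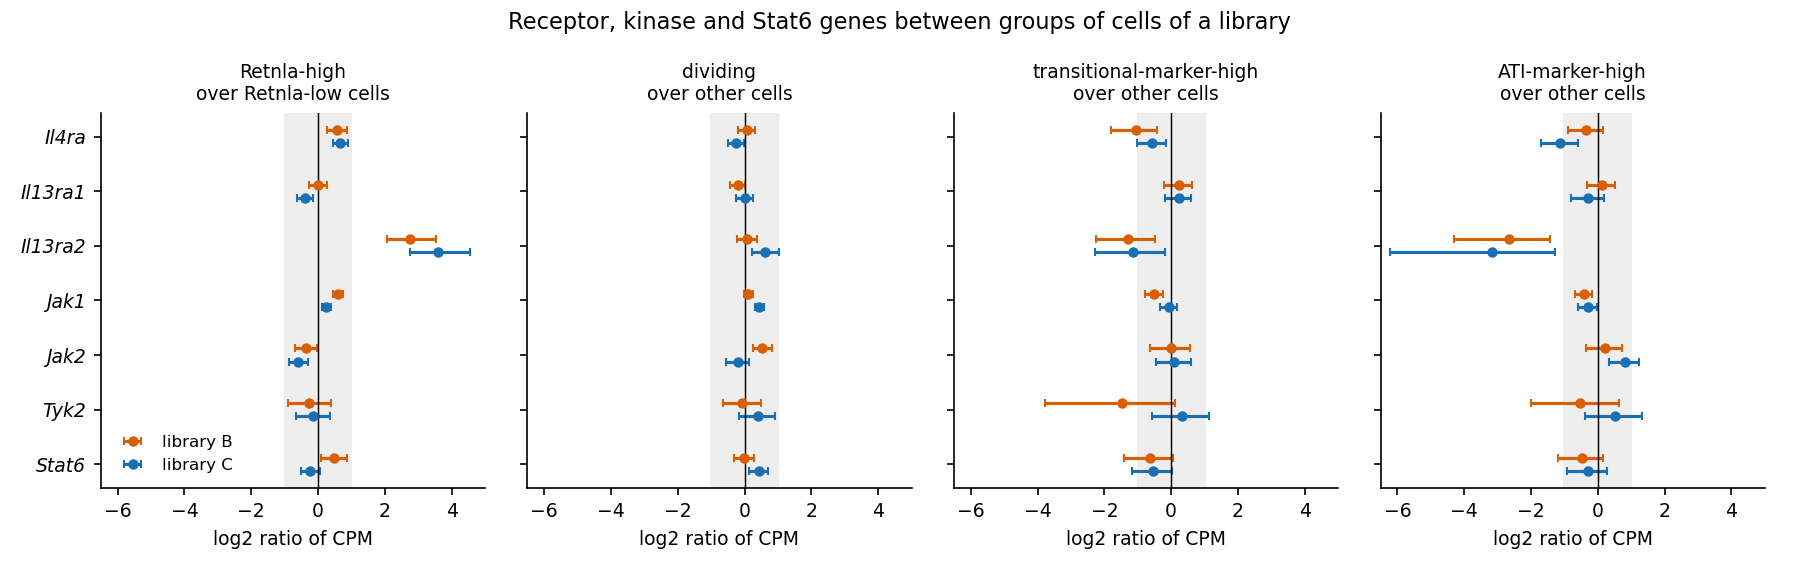
Log2 ratio of CPM of each detected gene in libraries B and C for Retnla-high over Retnla-low, dividing over other, transitional-marker-high over other and ATI-marker-high over other cells, with bars for exact 95% intervals and grey shading for ratios under 2-fold. Il13ra2 is the gene whose whole interval lies past the shading in both libraries, upward for Retnla (ratios 6.78 and 12.05) and downward for ATI markers (0.158 and 0.112).

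Over 9 finer ranges of Retnla, from none to at least 0.04 of UMIs, the level of Il13ra2 changed in a different way in each library. In library B it had 0 UMIs in cells with no Retnla UMI (up to 1.36 CPM allowed by 3 counts), then 1.40, 4.88, 11.8, 9.91, 12.5, 11.2 and 10.7 CPM, and 4.92 CPM (8 UMIs) in the highest range. In library C it had 0.664, 0.381 and 0.878 CPM below the lower cut, 0 and 2 UMIs in the pair of ranges between the cuts, and 3.94, 5.95, 6.94 and 7.71 CPM above the upper cut. In library B the level thus stood near 10 CPM from 0.001 of UMIs up to the second highest range, and in library C its highest value was in the highest range. Just inside and outside the upper cut, Il13ra2 had 12.5 and 9.91 CPM in library B, and 3.94 and 2.78 CPM in library C.

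Il4ra in library B had 13.6 CPM in cells with no Retnla UMI and 19.7 CPM at 0.04 or more. Its lowest value there was 4.88 CPM (8 UMIs, 2.11 to 9.61) at 0.0005 to 0.001, below the lower cut. That interval overlaps those of the ranges beside it. In library C Il4ra had 10.9 CPM with no Retnla UMI, between 12.7 and 14.4 CPM over the next 6 ranges, then 18.2 and 22.2 CPM. Jak1 had 28.9 CPM with no Retnla UMI and 59.7 CPM in the highest range of library B, and 31.9 and 41.4 CPM in library C, with its lowest value there, 23.0 CPM, at 0.005 to 0.01.

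**Figure D3:**
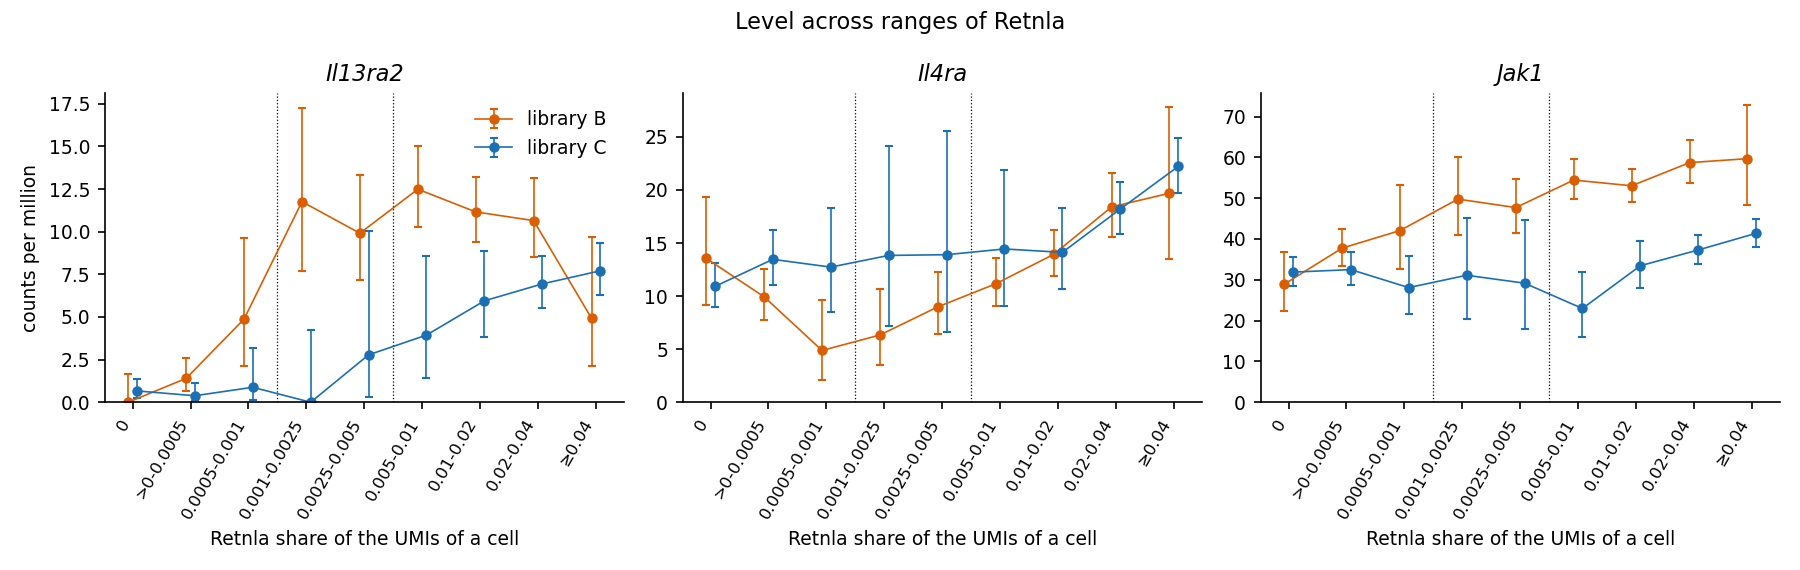
Level in CPM of Il13ra2, Il4ra and Jak1 over 9 ranges of the Retnla share of a cell's UMIs in libraries B and C, with exact 95% Poisson intervals and dotted lines at the cuts of 0.001 and 0.005. Il13ra2 in library B lies between 9.91 and 12.5 CPM from 0.001 to 0.04 and at 4.92 CPM above, and in library C is highest, at 7.71 CPM, in the highest range.

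Dividing cells, those with any UMI of Mki67 or Top2a, were 171 of library A, 1512 of library B and 2558 of library C. Their median UMIs were 10266.5, against 7741 in the other cells of library B (5213.5 and 3141 in library C). Summed ATII markers had 154700 and 165800 CPM in library B (126000 and 146200 in C), and ATI markers 1128 and 1604 CPM (1335 and 2851). The part of these measures in the ratios below was not tested. The size rule called 0 of the 4 genes that reached 20 CPM in library A and 0 of 1 in libraries B and C, where it called 2.7% of 5591 genes in library A, 4.54% of 4913 in library B and 7.63% of 5032 in library C. In library A all 7 detected genes had intervals that span equal levels, where 6% of 22350 genes had one wholly on 1 side. In library B Jak2 had 10.7 CPM in dividing cells, against 7.44 CPM in the other cells (ratio 1.44, 1.18 to 1.76), 1 of 7 genes wholly above equal levels where 27.9% of 18298 genes were. In cells with Retnla under 0.001 alone, the log2 fold of Jak2 in library B was 0.87 (ratio 1.94, 1.315 to 2.85). Its ratio there was 1.37 (0.736 to 2.48) in cells between the cuts and 1.26 (0.968 to 1.64) in Retnla-high cells, where both intervals span equal levels. In Retnla-low cells of library C the ratio of Jak2 was 0.788 (0.536 to 1.13).

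In library C 3 of 7 genes lay wholly above equal levels in dividing cells, where 30.9% of 18820 genes did, and 1 of 7 wholly below, where 10.6% did. Jak1 had 44.1 CPM in dividing cells, against 32.3 CPM in the other cells (ratio 1.36, 1.23 to 1.5). Stat6 had 10.4 CPM in dividing cells, against 7.79 CPM in the other cells (ratio 1.34, 1.09 to 1.64). Il13ra2 had 5.88 CPM in dividing cells, against 3.82 CPM in the other cells (ratio 1.54, 1.16 to 2.04), and Il4ra was lower, at 14.3 CPM in dividing cells, against 16.9 CPM in the other cells (ratio 0.842, 0.712 to 0.990). TMM scaling subtracted 0.18, 0.20 and 0.27 from the log2 folds of libraries A, B and C in this comparison, which left Jak1 of library C at 0.17 and Il4ra at -0.49. After it the intervals of Stat6 (0.900 to 1.36) and Il13ra2 (0.960 to 1.69) in library C spanned equal levels, those of Il13ra1 in libraries B (0.639 to 0.887) and C (0.693 to 0.997) and Jak2 in library C (0.565 to 0.908) lay below, and no other gene changed side.

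Within a Retnla range, the ratio of Il13ra2 in dividing over other cells had an interval that spans equal levels, except among Retnla-high cells of library C (ratio 1.41, 1.05 to 1.88). TMM scaling was not run within a range, and over all cells of library C it left the interval of Il13ra2 spanning equal levels. Among Retnla-high cells it had 11.5 CPM in dividing cells (9.49 to 13.7) and 10.9 CPM in the other cells (9.52 to 12.4) of library B, and 8.88 CPM in dividing cells (6.99 to 11.1) and 6.28 CPM in the other cells (5.29 to 7.41) of library C. Among Retnla-low cells it had 0.791 CPM in dividing cells (3 UMIs) and 2.08 CPM in the other cells of library B, and 0.657 CPM in dividing cells (3 UMIs) and 0.558 CPM in the other cells of library C. Retnla-low cells of library A, which are nearly all of that library, had 12.5 CPM in dividing cells and 11.6 CPM in the other cells. A low Retnla share thus went with a low Il13ra2 level in libraries B and C. Library A, with 7 Retnla-high cells, could not show whether the 2 go together there.

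**Figure D4:**
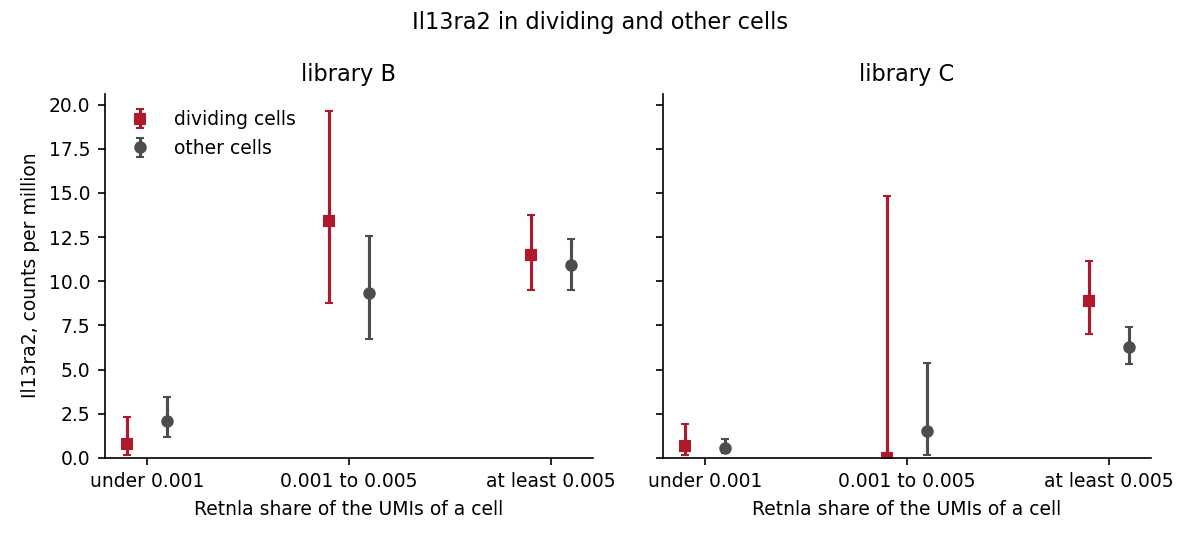
Level of Il13ra2 in CPM in dividing (squares) and other cells (circles) over 3 ranges of the Retnla share of UMIs in libraries B and C, with exact 95% Poisson intervals. In both libraries the Retnla-high cells, dividing (11.5 and 8.88 CPM) or not (10.9 and 6.28 CPM), lie above the Retnla-low cells.

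The 10% of cells with the highest share of transitional markers, genes such as Krt8 and Krt19 of cells between the ATII and ATI states, were set against the other cells of their library. The size rule called 0 of the 3 genes that reached 20 CPM in library A and 0 of 1 in libraries B and C, against 0.898% of 5233 genes in library A, 16% of 4893 in library B and 12.9% of 4853 in library C. Il4ra had 6.27 CPM in transitional-marker-high cells, against 13.1 CPM in the other cells of library B (ratio 0.478, 0.290 to 0.744), and 11.3 against 16.7 CPM in library C (ratio 0.675, 0.495 to 0.901). Il13ra2 had 3.76 CPM in transitional-marker-high cells, against 9.23 CPM in the other cells of library B (ratio 0.407, 0.209 to 0.719), and 2.07 against 4.53 CPM in library C (ratio 0.457, 0.206 to 0.884). Jak1 of library B was lower as well, at 36.1 CPM in transitional-marker-high cells, against 51.1 CPM in the other cells (ratio 0.705, 0.579 to 0.850). Wholly below equal levels lay 3 of 7 genes in library B, where 20.1% of 18886 genes did, and 2 of 7 in library C, where 17.4% of 19371 did.

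In library A Il4ra and Il13ra2 went the other way. Il4ra had 12.6 CPM in transitional-marker-high cells, against 8.65 CPM in the other cells (ratio 1.455, 1.13 to 1.86), and Il13ra2 had 17.95 against 11 CPM (ratio 1.63, 1.32 to 2.01). Il13ra1 was higher as well, at 18.8 against 13.7 CPM (ratio 1.37, 1.12 to 1.68), and its ratios of 1.17 in libraries B and C had intervals that span equal levels. That is 3 of 7 genes wholly above equal levels, where 9.44% of 22114 genes were. Stat6 was lower, at 21.0 against 26.0 CPM (ratio 0.807, 0.667 to 0.969), 1 of 7 wholly below, where 7.72% of all genes were. The cut lay at 0.345% of UMIs in library A, against 0.597% for library B and 0.519% for library C, so the top 10% of each do not hold cells of the same marker level, and the difference between libraries was not tested. Other measures moved with this split: Retnla had 1480 CPM in transitional-marker-high cells and 12470 CPM in the other cells of library B (3257 and 24230 in library C), ATII markers 57200 and 169500 CPM (65220 and 147900), and 8.93% and 29.05% of cells were dividing (4.05% and 19.0%). Their part in the values of Il4ra and Il13ra2 was not tested.

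In the 10% of cells with the highest share of ATI markers, Il13ra2 was low in libraries B and C. It had 1.49 CPM in ATI-marker-high cells (5 UMIs), against 9.42 CPM in the other cells of library B (ratio 0.158, 0.0510 to 0.371), and 0.518 CPM in ATI-marker-high cells (2 UMIs), against 4.63 CPM in the other cells of library C (ratio 0.112, 0.0135 to 0.409). The size rule called 0 of the same numbers of genes, against 0.173% of 5193 genes in library A, 8.81% of 4869 in library B and 10.3% of 4805 in library C. Under the added rule on the whole interval, Il13ra2 was called lower in both libraries, where 0.927% of 18885 genes in library B and 1.96% of 19408 in library C were. Il4ra had 7.77 CPM in ATI-marker-high cells, against 16.9 CPM in the other cells of library C (ratio 0.458, 0.307 to 0.659), and 10.1 against 12.9 CPM in library B, where the interval (0.539 to 1.11) spans equal levels. Jak2 of library C was higher, at 12.9 CPM in ATI-marker-high cells, against 7.42 CPM in the other cells (ratio 1.745, 1.27 to 2.35). Jak1 was lower in both, at 38.1 against 51.0 CPM in library B (ratio 0.746, 0.620 to 0.892) and 29.0 against 35.7 CPM in library C (ratio 0.812, 0.665 to 0.983). Wholly below equal levels lay 2 of 7 genes in library B, where 11.4% of genes did, and 3 of 7 in library C, where 13.8% did, and wholly above lay 1 of 7 in library C, where 12.7% did. In library A all 7 intervals span equal levels, where 11.2% of 22147 genes had one on 1 side. Here too Retnla differed, at 2520 CPM in ATI-marker-high cells and 12430 CPM in the other cells of library B (6700 and 23760 in library C), as did ATII markers (108400 and 166100 CPM for B, 118200 and 143000 for C) and the share of dividing cells (10.7% and 28.85% for B, 3.71% and 19.1% for C). Their part was not tested.

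Other genes of the pathway were read from lists. Of 30 genes known to be induced by IL-4 or IL-13, 9 reached 20 CPM in library B and 8 of these were called higher in Retnla-high cells, where 2.25% of all tested genes were, and 8 reached it in library C with 6 called higher, where 2% of all were. Of these, 4 in library B (Itln1, Il4i1, Fcer2a and Cish) and 3 in library C (Fcer2a, Cish and Retnlg) reached 20 CPM in Retnla-high cells only, so that filter leans their count upward. Of the 5 that reached it in Retnla-low cells, 4 were called higher in each library and 0 lower. The lists were chosen with earlier results of these data known, so these shares are a description and no test of a list. Retnla itself set the groups and is not in the counts, but its paralogue Retnlg is in that of library C. Socs2 and Cish are counted here and among the negative regulators. Chil4, a chitinase-like lectin, had 11860 CPM in Retnla-high and 1052 CPM in Retnla-low cells of library B, and 3389 and 48.7 CPM in library C. Chia1, the acidic chitinase, had 1220 and 218.8 CPM in library B, and 1288 and 20.9 CPM in library C. Slc26a4, the anion exchanger pendrin, had 154.7 and 75.25 CPM in library B, and 208.3 and 54.8 CPM in library C. Fcer2a, the low-affinity IgE receptor CD23, had 30.3 and 10.45 CPM in library B, and 30.4 and 5.99 CPM in library C. These 4 genes and Socs2 were called in both libraries. In library B Itln1, an intestinal-type lectin (log2 fold 3.61), Il4i1, an amino acid oxidase (2.29), and Cish (1.08) were called too, and in library C Retnlg (3.43), a paralogue of Retnla. Chil4 and Retnlg have close paralogues (Chil3, Retnla) whose reads can be hard to tell apart, so their levels are uncertain.

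Among the 16 negative regulators of JAK-STAT signalling, 6 were tested in library B and 5 in library C. Socs2, which is induced by several cytokines and growth hormone, had 213.5 CPM in Retnla-high and 75.98 CPM in Retnla-low cells of library B, and 194.3 and 64.3 CPM in library C. Cish had 27.6 and 12.5 CPM in library B and was called there alone. Socs1, the known feedback inhibitor of IL-4 signalling, was under 20 CPM and not tested, with 18.35 CPM in Retnla-high and 5.36 CPM in Retnla-low cells of library B and 6.12 and 1.98 CPM in library C. Not all of the list rose. In library B Socs3, also under 20 CPM, had 9.38 CPM in Retnla-high and 17.8 CPM in Retnla-low cells. Pias1, tested and not called, had 23.65 and 42.1 CPM there, and Ptpn1, likewise not called, 25.5 and 33.1 CPM. Of 7 type 2 cytokines and alarmins 1 was tested, the epithelial alarmin Il33, which was called in library C, with 236.5 CPM in Retnla-high and 101.6 CPM in Retnla-low cells, and had 107.9 and 58.35 CPM in library B. The lists of receptor adaptors, STAT6 co-activators, other STAT factors and other chains that use JAK1, JAK2 or TYK2 had 0 genes called in either library, and of the common gamma chain family 0 of 8 reached 20 CPM. The cytokines themselves were near 0, with 4, 3 and 4 UMIs of Il4 and 1, 0 and 1 of Il13 in libraries A, B and C. In dividing cells 1 gene of these lists was called, Chia1 of library C, with 319.3 CPM in dividing cells and 916.8 CPM in the other cells.

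The list of induced genes moved mostly the other way with the transitional and ATI markers. The negative regulators were mixed, with 1 called higher and 0 lower in ATI-marker-high cells of libraries B and C. In transitional-marker-high cells 1 of them was called lower in each of these libraries, and 1 higher in library B. The lists were chosen with earlier results of these data known, and the genes named here from any list after their values were seen. In transitional-marker-high cells 5 of 10 tested induced genes were called lower and 1 higher (Retnlg) in library B, and 5 of 7 lower in library C, where 8.71% and 6.02% of all tested genes were called lower. In ATI-marker-high cells 4 of 9 were lower in library B and 4 of 7 in library C, where 3.76% and 5.66% of all were. Genes that reach 20 CPM in the other cells only also pass the filter, so it can lean these counts of lower genes upward. No split by level was made here. Chil4, Slc26a4 and Fcer2a were lower in both libraries and both comparisons. Slc26a4 had 29.8 CPM in transitional-marker-high cells and 141.8 CPM in the other cells of library B, and 25.1 and 156.1 CPM in library C. Il33 had 17.9 CPM in transitional-marker-high cells and 93.6 CPM in the other cells of library B, and 35.0 and 192.8 CPM in library C. Of the STAT6 co-activators, Snd1 was lower in transitional-marker-high cells of both libraries (27.3 CPM there and 66.4 CPM in the other cells of B, 28.1 and 64.0 CPM for C), and Ncoa1 in library B. Pias1, a SUMO ligase that restrains STAT factors, was higher in ATI-marker-high cells of both (55.35 CPM there and 27.1 CPM in the other cells of B, 67.05 and 31.0 CPM for C). In library A 1 listed gene was called in these comparisons, Cish, with 66.6 CPM in transitional-marker-high cells and 30.2 CPM in the other cells.

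**Figure D5:**
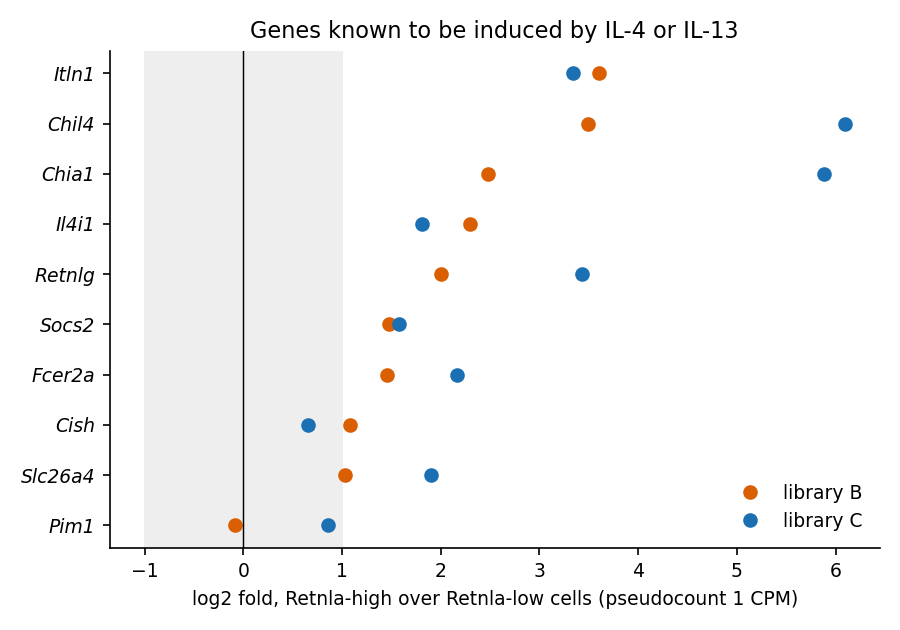
Log2 fold (pseudocount 1 CPM) of genes known to be induced by IL-4 or IL-13 in Retnla-high over Retnla-low cells of libraries B and C, for the genes at 20 CPM or more in a group of either library. Grey shading marks folds under 2; Chil4 (3.49 and 6.09) and Chia1 (2.47 and 5.88) lie past it in both libraries.

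Genes with the most similar pattern were sought over 15 units of at least 50 cells, a library by division and Retnla range, among 7531 genes that reached 20 CPM in a unit. By Pearson correlation of log2(CPM + 1), the nearest genes to Il4ra were Tram1 (0.787), Acadvl (0.741) and Ift20 (0.728), and those to Il13ra1 were Pcgf3 (0.849), Cdcp1 (0.817) and N4bp1 (0.804). Nearest to Jak1 were Uhrf1bp1l (0.985), Ralgapa2 (0.979) and Mfap3l (0.976), and to Jak2 Rab27a (0.959), Ubn2 (0.956) and Rest (0.952). Nearest to Stat6 were Topors (0.977), Ttc6 (0.974) and Tesk2 (0.972). Units of 1 library share their depth and their animals, and for Jak1, Jak2 and Stat6 library A lies far above the others. Over the 12 units of libraries B and C, and with 5 CPM asked of a gene, a setting added after seeing the data, Il13ra2 was nearest to Aass (0.978), Fzd4 (0.966) and Creb3l1 (0.960), and Il4ra to Il33 (0.910) and Ift20 (0.900). A unit of 57 cells, dividing cells of library C between the cuts, gave the highest level of Il13ra1 (24.1 CPM, 6 UMIs). It also gave the lowest levels of Stat6 (4.02 CPM, 1 UMI) and Il13ra2 (0 UMIs), so the rankings can turn on single UMIs. The correlations are descriptions over so few units and carry no test.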

How the data were processed

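Single cells were profiled with a droplet kit that reads transcript 3′ ends, per the labels' protocols. The authors deposited 1 matrix of whole-number UMI counts per gene and barcode, not normalised; the submitters' processing notes name bcl2fastq, Cell Ranger 6.0.1 and the builds GRCm38 and mm10. The counter's settings for introns, and any removal of doublets, are not given in the sources used here. The matrix holds 36584 barcodes and 52636 gene IDs, of which 52489 were named in the GENCODE annotation of GRCm38; the 147 others hold 0.0098% of UMIs. Of the features 0 were multiplexing tags, and the tag libraries were not used here.

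A cell was kept if it had 1000 UMIs and 500 genes or more, and if the 37 mitochondrial genes took no more than 15% of its UMIs (36540 kept; 1 dropped from library B and 43 from library C). No doublet caller was run; removing the 5% of cells with the most UMIs was an alternative. Counts were summed over cells and scaled to a total of 1000000 (CPM). Groups of cells, Retnla ranges and the top 10% by marker share were compared within a library, in groups of at least 50 cells, by the ratio of CPM with an exact interval; log2 folds have 1 CPM added. A count of 0 allows 3 counts. Shares of cells were also taken after thinning each cell to 2000 UMIs. All 8 genes are named, with the listed pathway genes that pass the size rule in the Retnla or dividing comparison and the 3 nearest patterns. The genes, lists and rules were chosen with earlier results of these data known. The whole-interval rules and their TMM-scaled form, the ratios of dividing over other cells within a Retnla range, the count of listed genes by their level in Retnla-low cells, the 9 Retnla ranges, the split by top 10% by marker share, the leaving out of shared barcodes, UMIs per cell with any and the second set of nearest patterns were added after seeing the data. The ratio and its interval were tested on simulated data.

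Sums and intervals were computed in Python 3.11.15 with scipy 1.17.1, pandas 2.3.3 and numpy 2.4.6, figures with matplotlib 3.10.9, and TMM factors in R 4.3.3 with edgeR 4.0.16.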

Additional observations from a re-analysis of the deposited data

How the results depend on the processing

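Under the size rule 0 of the 8 genes were called in each of the 11 combinations of a comparison and a library. Only 3 or 4 of them reached 20 CPM in library A, and Jak1 alone in libraries B and C, so the others could not be called. The rule called from 0.173% to 16% of all tested genes in these combinations. With a minimum of 3 counts in place of 20 CPM, Il13ra2 was called in the Retnla comparison of libraries B and C, the transitional comparison of library B and the ATI comparison of library B (1 gene each), and Il13ra2 and Il4ra in the ATI comparison of library C (2 genes); that rule called 3.87%, 2.83%, 12.1%, 6.26% and 6.9% of all genes in these comparisons. The rule added after seeing the data, a whole interval past 2-fold, called 1 gene, Il13ra2, in the Retnla and ATI comparisons of libraries B and C. In the dividing comparison of library A, a 1.5-fold threshold called 1 gene (Il13ra1) and thinning to 2000 UMIs called 1 gene; totals without Retnla and surfactant genes called 1 gene in the ATI comparison of library C and moved 19 of 98 single levels and folds past their counting interval, the most of any setting that was run on all 98. The shares of all genes called with the 1.5-fold threshold, the thinning and the changed totals are not given here, so these single calls have nothing to be set against. No called value turned round. In the Retnla comparison the log2 fold of Il13ra2 ranged over the settings from 1.28 to 2.48 in library B and from 1.1 to 2.72 in library C, lowest with 5 CPM added, and that of Il4ra from 0.40 to 0.69 and from 0.50 to 0.74. In the dividing comparison Il13ra2 of library C had a log2 fold of 0.09 in cells with Retnla under 0.001, against 0.51 in all cells; the cause was not tested. The gate of at least 2 UMIs of Mki67 and Top2a gave no value in library A, where it left under 50 cells. No paired analysis was possible because no library could be given a group or a replicate number. Most of these genes have under 1 UMI in 10 cells, so levels rest on sums over many cells, and differences of a few counts, as for Tyk2, were not detectable at this depth.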
